A study of Homo sapiens with 6 samples.

Results

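The guanylate-binding proteins GBP1 to GBP5 were followed in THP-1, an established cell line grown from a human monocytic leukaemia, through all 8 probes that the platform's probe table assigns to these 5 genes, out of 31741 probes for 18255 named genes. GBP1 had 2 probes, GBP5 had 3, and GBP2, GBP3 and GBP4 had 1 each. RNA was measured on 6 single-colour Cy5 arrays, 2 per group, from cells in medium with 0.5% serum. Resting cells received no agent. LPS cells received lipopolysaccharide, a component of the Gram-negative outer membrane, at 50 ng/ml for 8 h. LC53 plus LPS cells received 5 μM of the compound LC53 for 15 min and then the same LPS treatment. No group with LC53 alone was analysed here. The labels do not state whether both arrays of a group are separate cultures, so p-values measure the spread between these arrays, which may be technical.

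Guanylate-binding proteins are large GTPases of the dynamin superfamily, first found as abundant proteins of interferon-treated cells. In human cells GBP1 coats Gram-negative bacteria that enter the cytosol by binding their LPS, and with GBP2, GBP3 and GBP4 it gathers caspase-4, which senses LPS and cleaves the pore-forming protein gasdermin D. GBP1, GBP2 and GBP5 carry a lipid (prenyl) anchor at their C-terminus. The genes lie side by side on chromosome 1 and are known targets of IRF1, and in macrophages LPS reaches them largely through secreted type I interferon.

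Intensity is the deposited linear probe value, and differences are on the log2 scale ± SE, n = 2 arrays in each group. A difference was called at an adjusted p below 0.05 in limma, with Benjamini-Hochberg adjustment over 31741 probes. Median intensity was 84.4 to 124 across the arrays, and LPS replicate 2 was the brightest and LPS replicate 1 the dimmest. Arrays of 1 group correlated at 0.988 to 0.993 across probes. The number of arrays limited the precision. All 9 monocyte markers measured read above 50 on every array, and their summed level was 48892 to 49969 in resting, 34737 to 43337 in LPS and 42553 to 49725 in LC53 plus LPS cells. The summed level of 4 epithelial markers was 95.2 to 138 in resting, 114 to 118 in LPS and 275 to 285 in LC53 plus LPS cells. The highest epithelial marker averaged 54.0, 38.9 and 160 in these groups, and no epithelial marker was called in any comparison. The highest monocyte marker averaged 27753, 18808 and 26302, a large part of the monocyte sum. T cell markers summed to 493 to 603, 498 to 699 and 651 to 722 in the same groups, B cell markers to 533 to 603, 416 to 469 and 419 to 571, and endothelial markers to 334 to 425, 274 to 452 and 380 to 543. SPI1 rose and MPO fell with LPS, and CSF1R fell with LC53. The SPI1 and CSF1R calls ended when any resting or LC53 plus LPS array was left out, and the MPO call without any resting or LPS array (adjusted p up to 0.183, 0.209 and 0.201). Of 5 fibroblast markers, DCN and LUM rose with LPS and fell with LC53, calls that ended for DCN with LC53 without any LC53 plus LPS array, for LUM with LC53 without any array but LPS replicate 2, and for LUM with LPS without resting replicate 1 (adjusted p up to 0.11, 0.114 and 0.0654). The summed level of these 5 was 489.9 to 496 in resting, 705 to 927 in LPS and 568 to 598 in LC53 plus LPS cells. COL3A1, a defining collagen, read 1.46 to 2.52 in group means. Their part in the results was not tested.

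All 5 genes rose with LPS, 3.04-fold to 15.3-fold, and all 5 fell when LC53 preceded LPS, 4.0-fold to 7.70-fold. In LC53 plus LPS cells the log2 differences of GBP1, GBP3 and GBP4 from resting were -0.44 to 0.23, while GBP2 and GBP5 read 2.91-fold and 3.22-fold above it. Among all genes 4.45% were called higher with LPS and 2.24% were called lower with LC53. At the level of probes, 8 of 8 were called higher and 8 of 8 lower, against 4.02% and 1.94% of all probes. The arrays of the compared groups did not overlap for any of the 8 probes in either comparison, while 21.2% of all probes were higher without overlap with LPS and 16.4% lower with LC53. Both comparisons share the LPS arrays. In RNA from whole cultures, fewer responding cells and less RNA per cell cannot be told apart.

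**Figure D1:**
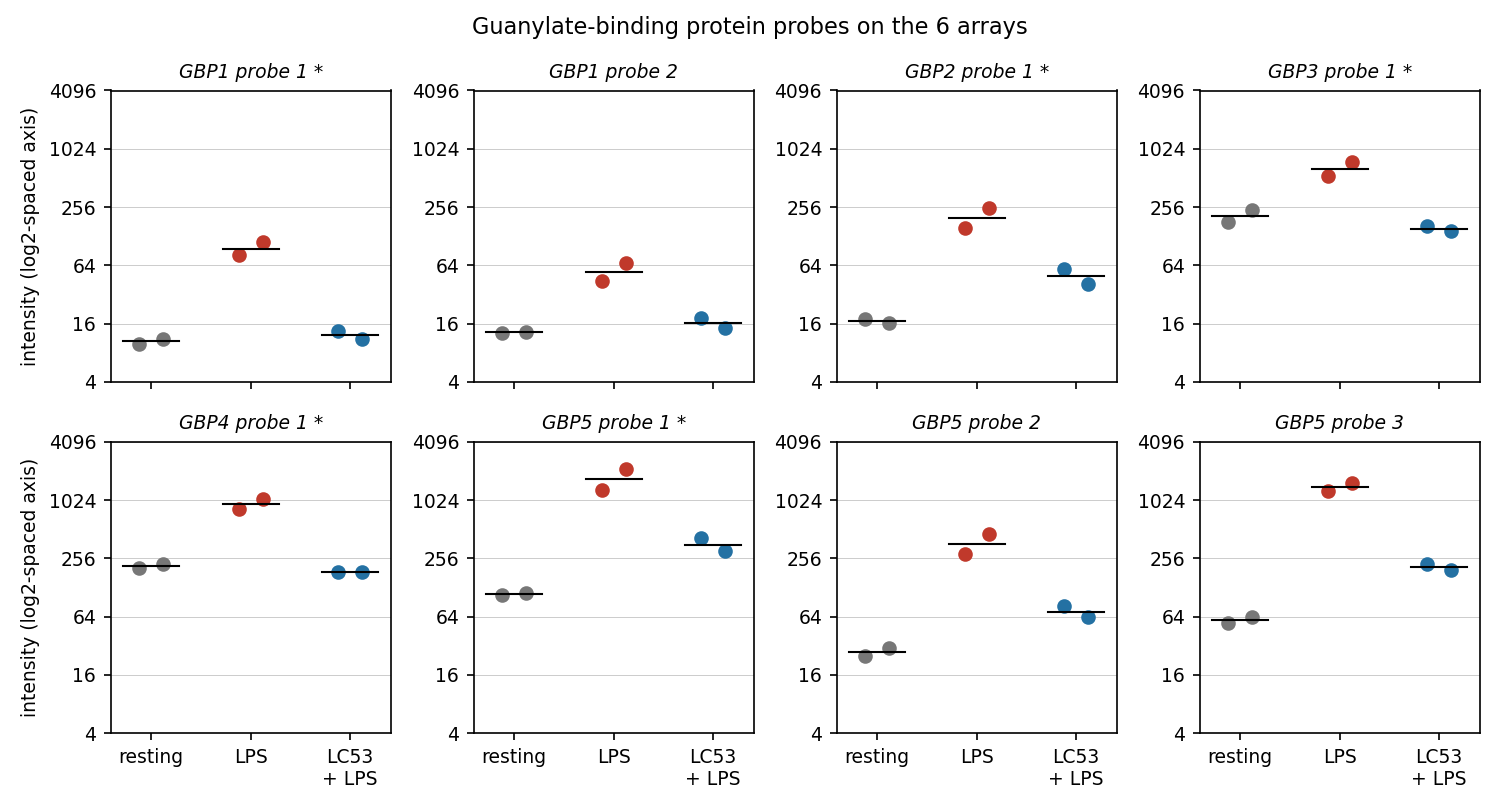
Intensity of each of the 8 probes on a log2-spaced axis, with 1 point per array, black lines at the mean of the log2 values of the 2 arrays, and an asterisk at the probe that represents each gene. In every panel both LPS points lie above both resting points and both LC53 plus LPS points. For GBP1, GBP2 and GBP5 the LC53 plus LPS points lie above the resting ones, narrowly in the first GBP1 probe. For GBP3 and GBP4 they lie below.

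GBP1, which binds LPS and starts the coat on cytosolic bacteria, was read by probe PH_hs_0040710 at 9.92 and 11.1 in resting cells, 81.2 and 111 with LPS, and 13.6 and 11.2 with LC53 plus LPS. The LPS arrays stood apart, while the resting and LC53 plus LPS values lay close together without overlapping. The rise was 3.18 ± 0.23 (9.04-fold, adjusted p = 0.00191) and the fall with LC53 was -2.94 ± 0.23 (7.70-fold, adjusted p = 0.00592). Against resting cells the difference was 0.23 ± 0.23 (95% interval -0.35 to 0.81, adjusted p = 0.692). The second probe, PH_hs_0038537, read 12.9 and 13.1 in resting, 43.7 and 68.3 in LPS and 18.1 and 14.5 in LC53 plus LPS cells. It had the same order with smaller differences, a rise of 2.07 ± 0.27 (adjusted p = 0.0117) and a fall of -1.75 ± 0.27 (adjusted p = 0.0371). In resting cells both probes lay at the 15.8 to 19.4 percentile of all probes. An offset of 50 added before the log reduced the differences of the first probe to 1.26 and -1.22, which still passed (adjusted p = 0.00402 and 0.0081).

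GBP2, a prenylated member recruited to the GBP1 coat and an inhibitor of the protease furin, read 17.8 and 16.1 in resting cells, 154 and 253 with LPS, and 58.9 and 41.3 with LC53 plus LPS (probe PH_hs_0018787). The 3 groups did not overlap, and LC53 plus LPS cells lay between the others. The rise with LPS was 3.54 ± 0.31 (11.6-fold, adjusted p = 0.00325) and the fall with LC53 was -2.00 ± 0.31 (4.0-fold, adjusted p = 0.0377). With an offset of 50 these were 1.89 and -1.32 (adjusted p = 0.0068 and 0.0281). GBP2 stood 1.54 ± 0.31 above resting cells, or 2.91-fold (95% interval 0.77 to 2.31 on the log2 scale), and did not pass (adjusted p = 0.0715). With the offset this difference was 0.57 (adjusted p = 0.216).

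GBP3, a member required for caspase-4 activation on the coat, read 180.5 and 237 in resting cells, 530.2 and 745 with LPS, and 162 and 144 with LC53 plus LPS (probe PH_hs_0005115). Both LC53 plus LPS arrays lay below both resting arrays. It rose by 1.60 ± 0.26 (3.04-fold, adjusted p = 0.0223), the lowest of the 5 genes except with an offset of 50, where GBP1 was lowest (1.26 against 1.40), and fell by 2.04 ± 0.26 with LC53 (4.11-fold, adjusted p = 0.0211). The difference from resting cells was -0.44 ± 0.26 (95% interval -1.07 to 0.20, adjusted p = 0.484).

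GBP4, which also takes part in bringing caspase-4 to the coat, read 204 and 221 in resting cells, 823 and 1042 with LPS, and 184 and 185 with LC53 plus LPS (probe PH_hs_0024812). As for GBP3, both LC53 plus LPS values were below both resting values. The rise was 2.12 ± 0.20 (4.36-fold, adjusted p = 0.00408) and the fall -2.33 ± 0.20 (5.02-fold, adjusted p = 0.00721). Against resting cells the difference was -0.20 ± 0.20 (95% interval -0.70 to 0.29, adjusted p = 0.684).

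GBP5, a Golgi-associated member that inhibits furin and has been linked to NLRP3 inflammasome assembly, had the highest rise of the 5 genes. Probe PH_hs_0032260 read 106 and 113 in resting cells, 1302 and 2144 with LPS, and 413 and 301 with LC53 plus LPS. The 3 groups did not overlap. It rose by 3.93 ± 0.30 (15.3-fold, adjusted p = 0.0022) and fell by 2.24 ± 0.30 with LC53 (4.74-fold, adjusted p = 0.0255). The other probes gave the same order. PH_hs_0012868 read 24.8 and 30.3, then 282 and 462, then 81.5 and 63.6 in resting, LPS and LC53 plus LPS cells, and PH_hs_0047556 read 55.5 and 63.5, then 1271 and 1536, then 221 and 195. Their rises were 3.72 ± 0.30 (adjusted p = 0.00243) and 4.56 ± 0.20 (adjusted p = 0.000419). Their falls were -2.33 ± 0.30 (adjusted p = 0.0225) and -2.75 ± 0.20 (adjusted p = 0.00523).

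The 3 GBP5 probes lay above resting in LC53 plus LPS cells, by 1.69 ± 0.30 (adjusted p = 0.0531), 1.39 ± 0.30 (adjusted p = 0.0826) and 1.81 ± 0.20 (adjusted p = 0.0148) in the order given. The last passed, at 3.50-fold with a 95% interval of 1.30 to 2.31 on the log2 scale, and was the 1 member probe of 8 called in this comparison, in which 1.75% of all probes were called higher. By the probe that represents each gene, 0 of 5 genes were called, against 3.52% of all genes called in either direction. At an unadjusted p below 0.05, 2 of 5 passed, GBP2 and GBP5, beside 17.8% of all genes. Without overlap between the arrays, 6 of the 8 probes were higher than in resting cells and 2 lower, beside 37.1% and 20.6% of all probes. The call of the last probe ended without resting replicate 1 or 2 (adjusted p = 0.174 and 0.127) or LC53 plus LPS replicate 1 or 2 (0.126 and 0.102). GBP2 and GBP5 passed without either LPS array (0.0456 and 0.0342). They also passed after median centring of the arrays (0.0142 and 0.00672), quantile normalization (0.0265 and 0.0119) and cyclic loess (0.0215 and 0.00797). Neither passed with the replicate number as a block in the model (0.133 and 0.107). They did not pass with an offset of 50 (0.216 and 0.0511) or without resting replicate 1 (0.352 and 0.331), resting replicate 2 (0.388 and 0.282), LC53 plus LPS replicate 1 (0.34 and 0.276) or LC53 plus LPS replicate 2 (0.186 and 0.164). Over 14 alternatives GBP2 passed in 7 and GBP5 in 8. The fits without LPS replicate 1, without LPS replicate 2 and with only the 4 arrays compared gave identical results here. They are counted separately in these totals.

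**Figure D2:**
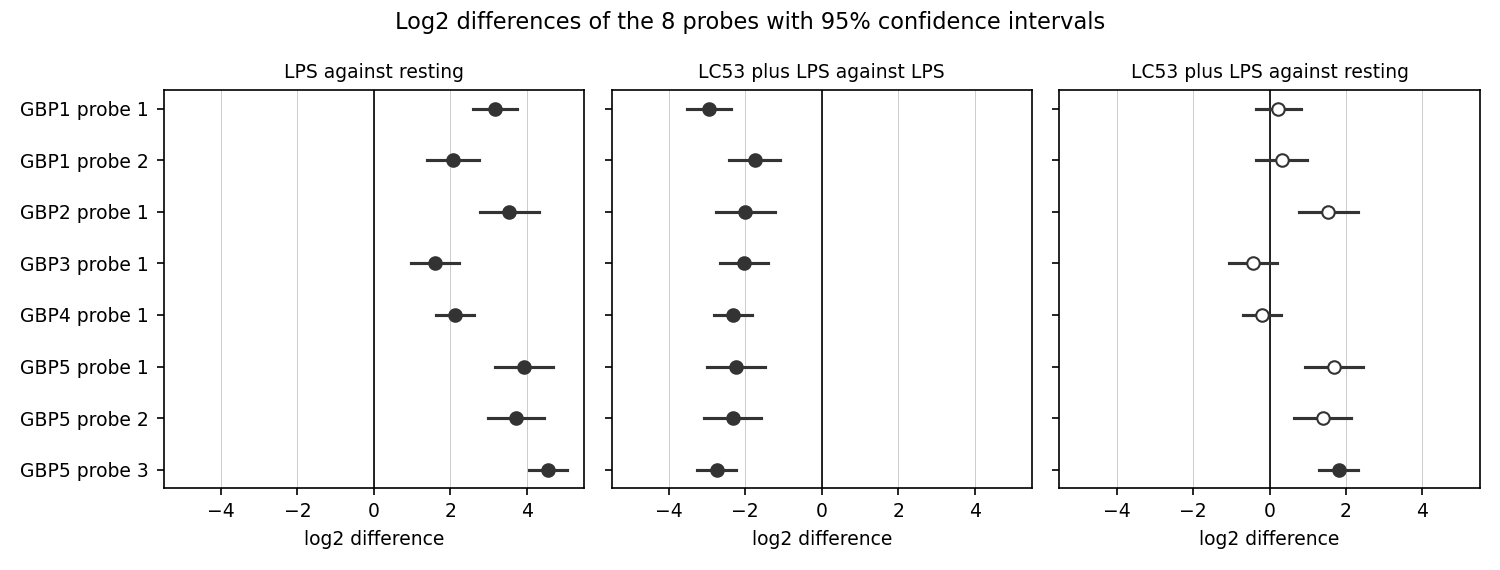
Log2 differences of the 8 probes (points) with 95% confidence intervals from limma (bars) in the 3 comparisons, with filled points at an adjusted p below 0.05. The first 2 panels hold filled points alone, right and left of 0, and in the last panel the GBP2 and GBP5 intervals lie right of 0 while those of GBP1, GBP3 and GBP4 span it.

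On the linear scale, LC53 plus LPS cells kept 17.7% of the LPS rise of GBP2 and 15.4%, 13.1% and 11.1% of that of GBP5 by its 3 probes. The values were 2.19% and 7.70% for the probes of GBP1, and below 0 for GBP3 (-13.0%) and GBP4 (-3.89%), whose LC53 plus LPS means were under the resting means. The differences of LC53 plus LPS from resting cells were -0.44, -0.20, 0.23, 1.54 and 1.69 for GBP3, GBP4, GBP1, GBP2 and GBP5. The 95% intervals of each pair of neighbours in this order overlapped, and differences between members were not tested.

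The median difference of the 5 genes was 3.18 with LPS and -2.24 with LC53 before LPS, beside medians of -0.07 and 0.16 over all genes. LPS replicate 2 was above LPS replicate 1 in all 8 probes, by 1.21-fold to 1.65-fold with a median of 1.48-fold, and its median ratio over all probes was 1.35. Over the normalizations and other alternatives the LPS rise of GBP5 was 3.43 to 4.29. By the probe that represents each gene, the LPS calls for GBP1, GBP2 and GBP5 held without each of the 6 arrays in turn. The second GBP1 probe lost its LPS call without resting replicate 1 (adjusted p = 0.0995) or 2 (0.0918), and its LC53 call without any resting (0.104) or LC53 plus LPS array (0.144 and 0.236). The second GBP5 probe lost its LC53 call without any resting (0.057) or LC53 plus LPS array (0.0974 and 0.151), and the third without LC53 plus LPS replicate 2 (0.0539). The GBP3 call was lost when resting replicate 1 (adjusted p = 0.19), resting replicate 2 (0.0996) or any LC53 plus LPS array (0.0567) was left out, and the GBP4 call when resting replicate 1 was (0.0543). The LC53 falls kept their direction and were less stable as calls. Without LC53 plus LPS replicate 2, 0 of 5 genes passed in limma (adjusted p = 0.0573 for GBP1 to 0.224 for GBP2), although all 5 had an unadjusted p below 0.05 beside 11.5% of all genes, and without LC53 plus LPS replicate 1 only GBP1 did. Without either resting array GBP1 and GBP4 passed, and GBP2 (0.0953), GBP3 (0.0532) and GBP5 (0.0677) did not. Without either LPS array 5 of 5 passed.

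The members occupy a run of neighbouring genes, in the order GBP3, GBP1, GBP2, GBP7, GBP4, GBP5, GBP6 along chromosome 1 in RefSeq. GBP7 and GBP6, the members of the run outside the 5, did not pass in any comparison. GBP7 read 14.9 and 22.2 in resting, 17.7 and 19.2 in LPS and 17.2 and 21.2 in LC53 plus LPS cells, with an LPS difference of 0.02 ± 0.26 (95% interval -0.62 to 0.66, adjusted p = 0.99). GBP6 read 26.8 and 30.3, 24.0 and 46.2, and 43.5 and 34.6 in the same groups, with an LPS difference of 0.22 ± 0.34 (95% interval -0.63 to 1.08, adjusted p = 0.804), and its second probe read 6.25 to 12.3. Their intervals for the LPS difference ended below the lower bound of the 95% interval of GBP1, GBP2, GBP4 and GBP5 for the same comparison, and that of GBP6 overlapped the GBP3 interval of 0.97 to 2.24. The differences between these genes and the 5 members were not tested themselves. Of 8 genes on either side of the run, among them the kinase gene PKN2, the transcription factor gene GTF2B and the LRRC8 volume-regulated channel genes, 0 were called in any comparison by limma. Their LPS differences ran from -0.08 to 0.71 and their LC53 differences from -0.84 to 0.70. At an unadjusted p below 0.05, 2 of 8 passed with LPS (GTF2B and LRRC8B) and 3 with LC53 before LPS (PKN2, LRRC8C and ZNF326). The share of all genes below that threshold was not counted for these 2 comparisons. Between LC53 plus LPS and resting cells 3 of 8 passed (LRRC8B, LRRC8C and ZNF326), beside 17.8% of all genes.

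**Figure D3:**
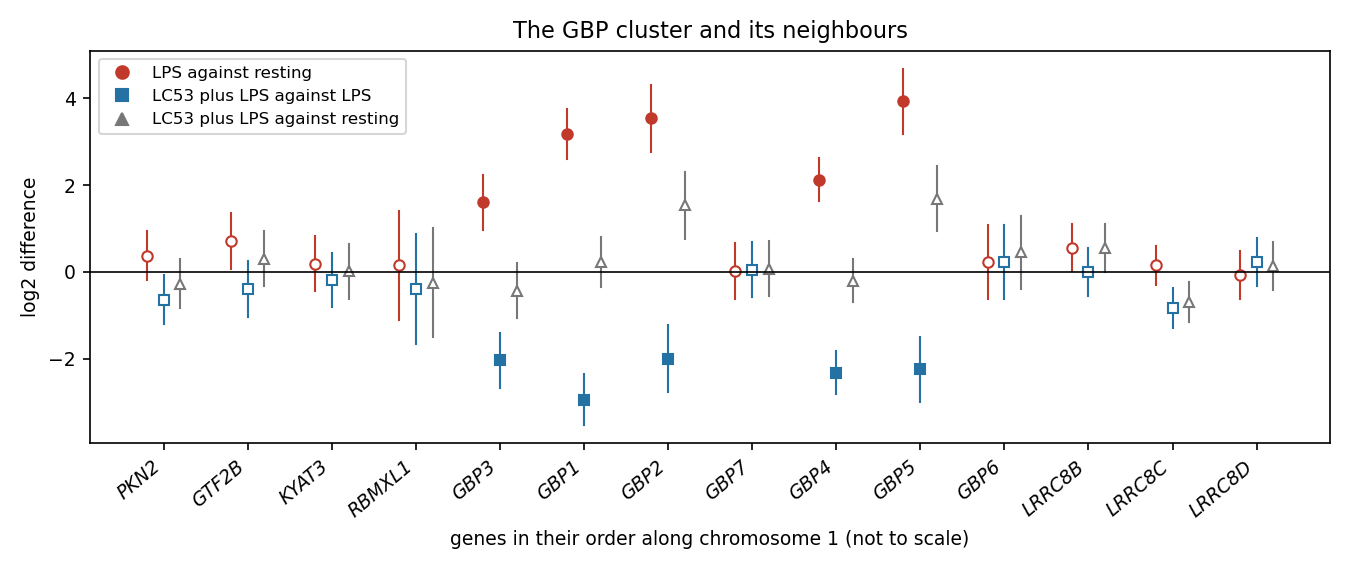
Log2 differences with 95% confidence intervals for measured genes in their order along chromosome 1, spaced evenly, in the 3 comparisons, with filled symbols at an adjusted p below 0.05. Filled circles and squares occur at GBP3, GBP1, GBP2, GBP4 and GBP5 and at no flanking gene, and GBP7 between them lies at 0.02 for LPS against resting.

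Promoter windows of GBP1, GBP3 and GBP4, from 250 bases before to 50 bases after the start of each gene, were taken from RefSeq on GRCh38.p14 to show the sequence beside these shared changes. The table matched 3 of 5 members. The windows were searched on both strands for the core of the interferon-stimulated response element (GAAA, any 2 bases, GAAA) bound by IRF factors. They were also searched for TTCNNNGAA, a strict form of the gamma-activated site of interferon gamma targets. The kappaB site bound by NF-kB was searched in the form GGGA, any 2 bases, TTCC. Looser forms were not searched, so a window without a match may still hold such a site. Matches are in capitals, and each window is on the minus strand, printed 5′ to 3′ in the direction of the gene.
GBP1, chr1:89065159-89065458: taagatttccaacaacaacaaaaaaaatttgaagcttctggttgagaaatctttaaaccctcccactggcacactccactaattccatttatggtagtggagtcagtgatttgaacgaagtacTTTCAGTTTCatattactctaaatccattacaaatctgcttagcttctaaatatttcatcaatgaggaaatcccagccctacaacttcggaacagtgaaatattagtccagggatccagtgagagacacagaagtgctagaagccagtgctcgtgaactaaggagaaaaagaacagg
GBP3, chr1:89022817-89023116: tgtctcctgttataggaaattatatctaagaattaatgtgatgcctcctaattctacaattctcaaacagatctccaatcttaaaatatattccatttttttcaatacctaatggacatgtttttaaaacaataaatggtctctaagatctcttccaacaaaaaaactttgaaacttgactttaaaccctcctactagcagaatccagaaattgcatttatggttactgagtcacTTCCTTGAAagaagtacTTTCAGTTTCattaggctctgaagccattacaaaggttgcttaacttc
GBP4, chr1:89198893-89199192: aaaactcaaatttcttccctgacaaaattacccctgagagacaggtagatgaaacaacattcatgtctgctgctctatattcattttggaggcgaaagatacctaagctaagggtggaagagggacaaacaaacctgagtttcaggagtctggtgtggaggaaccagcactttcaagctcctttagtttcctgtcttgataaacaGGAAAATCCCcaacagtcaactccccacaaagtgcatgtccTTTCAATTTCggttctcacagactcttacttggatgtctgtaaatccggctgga

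Each of the 3 windows held 1 match to the response element core, in its reverse orientation. It read TTTCAGTTTC in GBP1 and GBP3 and TTTCAATTTC in GBP4. The match began 127 bases before the start in GBP1 and 4 bases before it in GBP4, and at base 3 after the start in GBP3. GBP1 and GBP3 shared a run of 19 bases around it, gaagtacTTTCAGTTTCat. The GBP3 window also held a match to the strict form TTCNNNGAA, TTCCTTGAA, 15 bases before the start. The GBP4 window held a kappaB match, GGAAAATCCC, 45 bases before it. No match overlapped another. Of all 35116 windows in the table, 3.57% held the response element core, 7.66% the form TTCNNNGAA and 1.61% the kappaB form. The windows of GBP6 and GBP7 held none of these letters. A match describes the sequence and is not evidence of binding.

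Among 5 genes listed as other interferon-inducible large GTPases, 2 rose with LPS and the same 2 fell with LC53. These were MX1 and MX2, whose products act against viruses. MX1 read 293 and 349 in resting, 6461 and 9663 in LPS and 983 and 714 in LC53 plus LPS cells (4.63 ± 0.29, adjusted p = 0.00107, then -3.24 ± 0.29, adjusted p = 0.00751). MX2 read 827 and 980.3, 9418 and 10302, and 869 and 851 (3.45 ± 0.19, adjusted p = 0.000679, then -3.52 ± 0.19, adjusted p = 0.00218). Against resting cells the LC53 plus LPS difference was -0.07 ± 0.19 for MX2 and 1.39 ± 0.29 for MX1. By limma 0 of the 5 were called there, and at an unadjusted p below 0.05 MX1 alone passed, beside 17.8% of all genes. The MX1 fall was not called without LC53 plus LPS replicate 2 (adjusted p = 0.0633). The remaining genes of this list were GBP6, GBP7 and IRGM, a GTPase of autophagy. Neither size nor interferon induction was tested here for IRGM, so the list name may not hold for it. Of 7 related GTPases that shape membranes and are not known for interferon induction (atlastins, dynamins, mitofusins and OPA1), 0 were called in any comparison in limma, with LPS differences of -0.16 to 0.41. At an unadjusted p below 0.05, 0 of these 7 passed in any comparison.

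Of 21 interferon ligand, receptor and signalling genes, 10 rose and 0 fell with LPS, 0 rose and 4 fell with LC53, and 1 was higher in LC53 plus LPS than in resting cells. The median LPS difference was 0.73. The genes with the largest rises were the feedback inhibitor genes SOCS3 (5.69, adjusted p = 0.000195) and USP18 (3.76, adjusted p = 0.00044) and the transcription factor genes IRF7 (2.63, adjusted p = 0.00294) and STAT2 (2.14, adjusted p = 0.00517). These 4 were also those that fell with LC53, by -3.41, -3.19, -1.87 and -2.00 (adjusted p = 0.0022, 0.00218, 0.0192 and 0.0141), and SOCS3 remained 2.28 above resting (adjusted p = 0.00595). The second SOCS3 probe did not pass with LPS (0.91, adjusted p = 0.128) or LC53 (-1.25, adjusted p = 0.0842), and differed from resting by -0.34 with overlapping arrays. The SOCS3 call against resting ended without any resting or LC53 plus LPS array (adjusted p up to 0.0918), the STAT2 rise without resting replicate 1 (0.0617), the STAT2 fall without LPS replicate 1 or any LC53 plus LPS array (up to 0.112), and the IRF7 fall without any array but LPS replicate 2 (up to 0.128). IRF1, an activator of GBP genes, read 1207 and 1434 in resting, 3554 and 3764 in LPS and 1762 and 2206 in LC53 plus LPS cells. It rose by 1.48 ± 0.21 (adjusted p = 0.0152), a call that ended without resting replicate 1 or 2. Its LC53 difference of -0.89 ± 0.21 did not pass (adjusted p = 0.103). The second IRF1 probe rose by 2.02 (adjusted p = 0.00804) and differed by -0.88 with LC53 (adjusted p = 0.134). The receptor subunit genes IFNGR1 and IFNGR2 were among those that rose, and the IFNGR1 call ended without any array but LPS replicate 1 and the IFNGR2 call without LPS replicate 2 or any resting array (adjusted p up to 0.202 and 0.18).

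The interferon genes IFNB1 and IFNG were not called in any comparison. IFNB1, encoding interferon beta, read 27.8 and 32.3 in resting, 27.1 and 50.0 in LPS and 43.5 and 36.8 in LC53 plus LPS cells (LPS difference 0.30 ± 0.33, adjusted p = 0.703). IFNG, encoding interferon gamma, read 142 and 135, 69.8 and 153, and 173 and 146 (-0.42 ± 0.38, adjusted p = 0.631). For both genes the LPS arrays overlapped the resting and the LC53 plus LPS arrays. Both LC53 plus LPS arrays lay above both resting arrays, as they did for 37.1% of all probes. A level at 8 h says nothing of earlier times.

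Of 10 genes of caspase-4 and the inflammasomes, 4 rose and 1 fell with LPS, 0 rose and 3 fell with LC53, and 2 stood higher in LC53 plus LPS than in resting cells. CASP4, the caspase that the GBP coat activates, read 6999 and 6649 in resting, 8203 and 9895 in LPS and 10187 and 9549 in LC53 plus LPS cells. Its differences of 0.40 ± 0.19 with LPS (adjusted p = 0.334) and 0.13 ± 0.19 with LC53 (adjusted p = 0.738) did not pass. CASP5, its closest relative, read 40.7 and 50.4, 207 and 256, and 69.8 and 71.4, rising by 2.35 ± 0.21 (adjusted p = 0.00353) and falling by 1.71 ± 0.21 (adjusted p = 0.0208). All 4 CASP5 probes rose with LPS and 3 fell with LC53, and 1 of them lay 2.65 below resting with LC53 (adjusted p = 0.0251) while the others did not pass there. CASP1, which processes interleukin-1 beta, differed by 0.77 ± 0.30 with LPS (adjusted p = 0.243) and by -0.99 ± 0.30 with LC53 (adjusted p = 0.178). Its other probes differed by 0.96 and 0.77 with LPS (adjusted p = 0.0832 and 0.112). With LC53 they differed by -1.27 and -1.17 and did not pass either (adjusted p = 0.0617 and 0.058). IL1B, encoding interleukin-1 beta, had the largest changes of this list, 7.73 and -3.80. The cytosolic DNA sensor gene AIM2 rose by 2.54 (adjusted p = 0.0124) and fell by 2.29 (adjusted p = 0.0326). IL18, a cytokine gene, was the 1 that fell with LPS (-0.95, adjusted p = 0.0439), a call that ended without any array but LPS replicate 2 (adjusted p up to 0.338). NINJ1, whose product ruptures the membrane of dying cells, rose by 3.01 (adjusted p = 0.0015) and remained 2.55 above resting with LC53 (adjusted p = 0.00595). The CASP5 fall ended as a call without any resting or LC53 plus LPS array (adjusted p up to 0.149), and the AIM2 rise without any resting or LPS array (up to 0.0868) and its fall without any array except LC53 plus LPS replicate 2 (up to 0.104). The NINJ1 call against resting ended without any resting or LC53 plus LPS array (up to 0.084).

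Of 13 genes that modify or hold GBP proteins (prenylation enzymes, 14-3-3 proteins, the kinase PIM1 and furin), 1 rose with LPS. With LC53 before LPS 0 were called by limma. At an unadjusted p below 0.05, 1 passed there (YWHAG), and the share of all genes was not counted. In LC53 plus LPS cells 1 was called higher than in resting cells. Both calls were PIM1, whose product phosphorylates GBP1. It read 357 and 372 in resting, 1321 and 1727 in LPS and 1095 and 1192 in LC53 plus LPS cells, a rise of 2.05 ± 0.21 (adjusted p = 0.00523) and a LC53 difference of -0.40 ± 0.21 (adjusted p = 0.361). The PIM1 rise ended as a call without resting replicate 1 or 2 (adjusted p up to 0.0636). Its call against resting (1.65, adjusted p = 0.0201) ended without any resting or LC53 plus LPS array (up to 0.2). The farnesyltransferase subunit gene FNTA differed by 0.23 and -0.04 and the furin gene FURIN by -0.14 and 0.03.

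Of 9 partners in defence of the cytosol, 6 rose with LPS, 1 rose and 4 fell with LC53, and 2 were higher than in resting cells. ISG15, a ubiquitin-like interferon target, rose by 3.95 and fell by 2.27, UBE2L6, its conjugating enzyme, by 2.23 and 2.46, and APOL3, a lipoprotein that permeabilises bacteria in GBP1-coated sites, by 2.60 and 2.68. The ubiquitin ligase gene RNF213, whose product ubiquitylates bacterial LPS, rose by 2.0 and fell by 1.71, while 1 of its 4 probes differed by -0.08 and 0.09. SQSTM1, an autophagy receptor gene, went the other way with LC53. It read 190.4 and 216 in resting, 695 and 868 in LPS and 3461 and 2906 in LC53 plus LPS cells, a further rise of 2.03 ± 0.21 (adjusted p = 0.013). The LC53 calls of these 5 genes ended without either LC53 plus LPS array (adjusted p up to 0.15), and that of RNF213 also without either resting array. The LPS calls of RNF213 and UBE2L6 ended without resting replicate 1 (0.0774 and 0.0692) and that of SQSTM1 without resting replicate 1 or 2 (0.0826 and 0.0594). ISG15 was also above resting with LC53 (1.68, adjusted p = 0.0295), a call that ended without any resting or LC53 plus LPS array (up to 0.251). In all 7 lists, 10 of 24 LPS calls and 4 of 14 LC53 calls held whichever of the 6 arrays was left out.

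**Figure D4:**
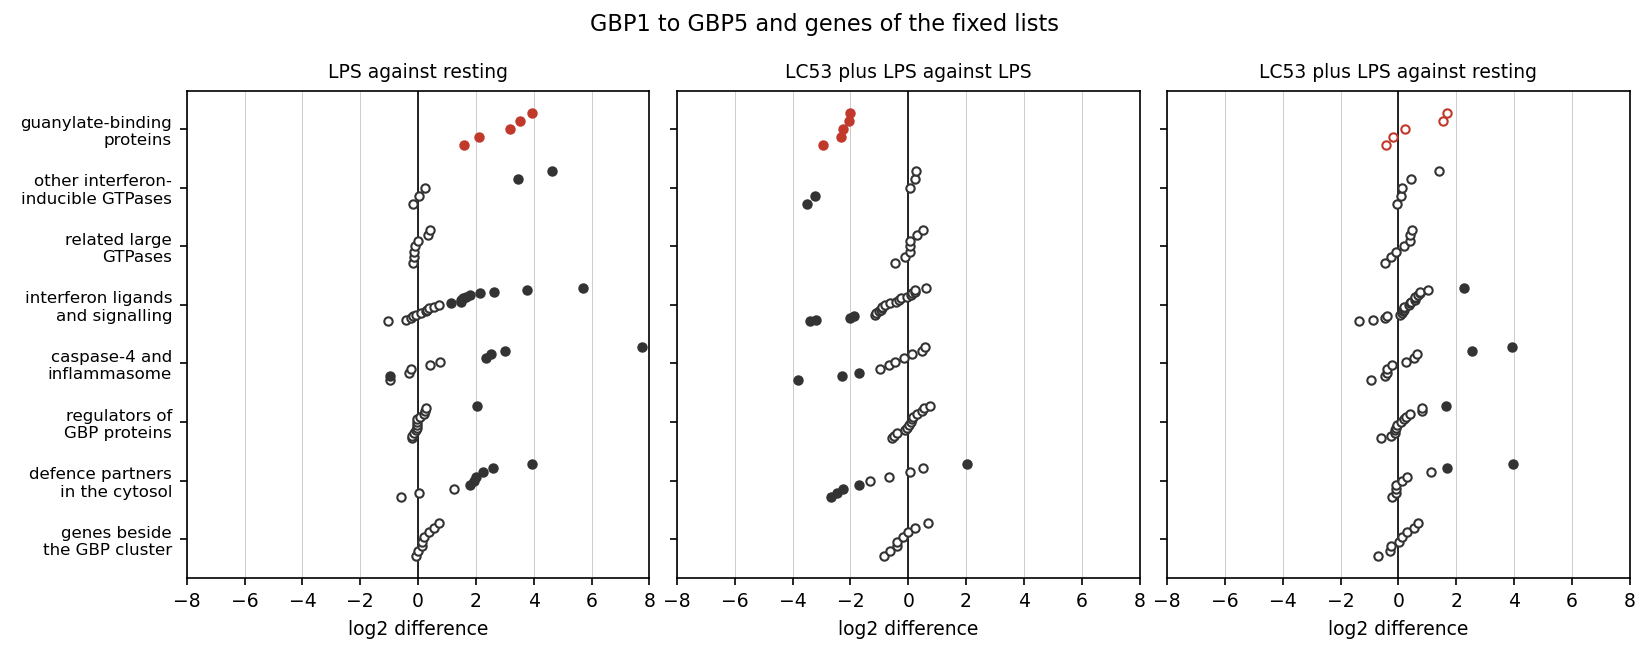
Log2 differences of GBP1 to GBP5 (red, top) and of the genes of the 7 lists (black), with 1 point per gene ordered by value within its list and filled points at an adjusted p below 0.05. All 5 GBP points are filled in the first 2 panels, beside 2 of 5 genes listed as other interferon-inducible GTPases and 0 of 7 related GTPases. No GBP point is filled in the last panel. The list of 5 includes IRGM, for which interferon induction was not tested.

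The genes with the array pattern closest to each member were found by the Euclidean distance between log2 values over the 6 arrays, each profile centred on its resting mean, among 16899 probes with a highest group mean of at least 50. Arrays share their scaling, so these distances are descriptions. Nearest to GBP1 were GPR141, an orphan receptor gene (distance 0.116), IFITM1, an antiviral membrane protein gene (0.163), and SAMSN1, an adaptor gene (0.358). GBP2 had DCN (0.451), the second GBP5 probe (0.46) and SHROOM3 (0.536). GBP3 had IQGAP2 (0.315), TNFRSF1B (0.328) and RASGRF1 (0.354), and GBP4 had FLT1 (0.268), PIM2 (0.286) and KCNQ3 (0.296). GBP5 had ISG15 (0.279), CHST2 (0.515) and IFIT3 (0.52). Among the members, the shortest distance between genes was that of GBP2 and the second GBP5 probe, and the longest that of GBP3 and the third GBP5 probe, at 5.25. The 2 probes of GBP1 lay 1.58 apart, farther than the second GBP1 probe from GBP4 (0.808). These distances include the size of a change, which was smaller in the second GBP1 probe while the order of its groups was the same.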

How the data were processed

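RNA of 6 THP-1 arrays was analysed from the series' value table. Per the labels' protocols, amino allyl amplification preceded Cy5 labelling. The deposited values were linear intensity. On every array they were whole multiples of 1 step (tolerance 0.02), so 1 factor per array had been applied, by a step that no label names. For the scanner, background correction and normalization the status is: not given in the sources used here. No array was rescaled. Log2 was taken with a floor of 1. No member probe was saturated (65500 units).

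Of 31741 probes, 24658 had a single gene symbol through the probe table and RefSeq, 1002 several and 6081 none. A gene was represented by the probe whose mean log2 value was highest. A model with 1 mean per group was fitted to all arrays and probes with limma 3.58.1 in R 4.3.3, and the 3 contrasts were adjusted by Benjamini-Hochberg. The fit was tested on simulated data with changed probes at a resting level above 50. It recovered 62 of 100 probes with a log2 change of 2 and 91 of 100 with a change of 4, with 3 false calls. A difference that did not pass is therefore not shown to be absent. Tables and figures used Python 3.11.15, pandas 2.3.3 and matplotlib 3.10.9.

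ATL2 and FNTB of the lists and FCGR1A, TRAC and KRT18 of the markers had no matched probe and were not analysed here. Some items are not reported here. Members, lists and tests were chosen with earlier results of these data known. All probes of the members are named. Up to 4 called genes of each list with the largest differences per contrast, a fixed set of genes (GBP6, GBP7, IFNB1, IFNG, IRF1, CASP1, CASP4 and CASP5), and the 3 nearest genes of each member are named. Other genes named (PKN2, GTF2B, LRRC8C, LRRC8B, ZNF326, IFNGR1, IFNGR2, IRGM, YWHAG, FNTA, FURIN and the markers) were chosen after their values were seen. Alternatives were 3 normalizations, an offset of 50, a filter on dim probes, a replicate block, the 4 arrays of a contrast alone, each array left out, a threshold of 0.01 and the mean over a gene's probes. The filter on dim probes kept those with a highest group mean of at least 50. Both GBP1 probes reached it in LPS cells alone (means of 95.9 and 56.0).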

Additional observations from a re-analysis of the deposited data

How the results depend on the processing

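No member difference changed sign in any of the 3 comparisons (LPS with resting, LC53 plus LPS with LPS, LC53 plus LPS with resting) under any alternative run. The number of member genes called for LPS against resting was 5, but 4 with only the 4 arrays compared, 4 at a threshold of 0.01 and 3 to 5 with 1 array left out. For LC53 plus LPS against LPS it was 5, but 3 with the replicate block, 2 with only the 4 arrays compared, 2 at a threshold of 0.01 and 0 to 5 with 1 array left out. For LC53 plus LPS against resting it was 0, but 2 after quantile normalization, median centring, cyclic loess, without dim probes or with only the 4 arrays compared, 1 with the mean over a gene's probes, and 0 to 2 with 1 array left out. The filter on dim probes used the group means of these same arrays, so counts without dim probes are not separate support. The cause was not tested.

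The labels do not say whether same-numbered arrays of different groups belong together. Deviations of same-numbered arrays correlated at 0.06, 0.20 and -0.08 between pairs of groups. With 2 arrays in each group these values cannot settle whether the arrays were paired. With the replicate block the calls of GBP2 (adjusted p = 0.091) and GBP5 (0.0693) for LC53 plus LPS against LPS ended, and 1492, 389 and 481 probes were called in the 3 comparisons in the order above, instead of 2069, 834 and 941. The block takes 1 of the 3 residual degrees of freedom. In the same order the counts were 5157, 3755 and 3494 after quantile normalization, 3802, 2416 and 2440 after median centring, 5032, 3585 and 3370 after cyclic loess, 3519, 2367 and 2198 with an offset of 50, 3207, 1912 and 1947 without dim probes, 1200, 305 and 1555 with only the 4 arrays compared, and 763, 180 and 224 at a threshold of 0.01. With 1 array left out they ranged from 479 to 2579, 91 to 2318 and 75 to 1555, the lone array of a group being assumed to vary like the others. The share of called probes that were higher was 61.7%, 26.1% and 59.2%, against 49.5%, 43.9% and 43.5% after quantile normalization, 60.4%, 27.6% and 44.1% after median centring, 58.6%, 33.4% and 44.7% after cyclic loess and 50.3%, 46.4% and 49.2% with an offset of 50. Leaving out LPS replicate 2 gave 38.0%, 73.1% and 55.9%, leaving out LPS replicate 1 gave 74.7%, 16.4% and 55.9%, and leaving out any other array gave 71.8% to 87.4%, 9.15% to 13.4% and 72.0% to 88.2%. Median centring moved the median difference of all probes from 0.15 to 0.02 for LC53 plus LPS against LPS. Called genes of the fixed lists for LC53 plus LPS against LPS numbered 14, and 22 to 26 after the normalizations, with an offset of 50 or without dim probes, but 5 without either LC53 plus LPS array, 6 at a threshold of 0.01 and 10 with only the 4 arrays compared. No background level accompanied the intensities, so which dim probes were above background is unknown.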
